A study of Mus musculus with 6 samples.

Results

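Liver breaks down most of the amino acids that reach it, and the genes described here encode the enzymes of those pathways and of the one-carbon cycle tied to them. The members are 32 named genes, chosen by gene name: those of tyrosine and tryptophan breakdown, the branched-chain complex, methionine and sulfur metabolism, glycine, serine and sarcosine metabolism, the transaminases of alanine and aspartate, and single steps of proline and lysine breakdown. A gene counted as measured where the array's annotation tied a probe set, a group of short probes read together, to that gene alone. This held for 27 of the 32, against 14860 genes measured in this way in the whole data set. For each of the 27 there was 1 such probe set.

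Liver RNA of 3 DeltaHepKlf6 mice and 3 Control mice was read on Affymetrix exon arrays, 1 per mouse, and the values are normalized log2 signals, on which a step of 1 is 2-fold. DeltaHepKlf6 mice had Klf6, a zinc finger transcription factor, knocked down in hepatocytes only. Their livers are labelled as less steatotic and the mice as having improved glucose tolerance. Control mice were littermates labelled wild type, glucose intolerant and with marked fat in the liver. All 6 mice ate a high-fat diet for 8 weeks. The design asks which genes downstream of Klf6 differ in glucose and lipid metabolism. The labels used here do not give the promoter that drives the knockdown, the sex or the age of the mice, and other liver cells kept the gene.

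As background, an amino acid is usually broken down by moving or removing its nitrogen and then oxidising the carbon skeleton. Tyrosine and tryptophan are opened by dioxygenases, and branched-chain keto acids are oxidised by a mitochondrial complex. Methionine is turned into S-adenosylmethionine, the methyl donor of the cell, and the homocysteine that remains is either methylated again or passed on to cysteine. Glycine, serine, sarcosine and dimethylglycine feed folate with single carbons. In liver many of these genes are known to respond to glucagon, glucocorticoids and fasting.

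No member passed the test. Limma's moderated test with Benjamini-Hochberg adjustment over all 23332 probe sets called 0 of the 27 measured members at an adjusted p under 0.05, and 0% of all probe sets. At an unadjusted p under 0.05 it counted 0 of 27 members, against 1.68% of all genes. The difference, always DeltaHepKlf6 minus Control on the log2 scale, was below 0 in 21 members, above 0 in 5 and exactly 0 in 1, where 62.1% of all genes had a difference below 0. The median difference was -0.11 over the members and -0.05 over all genes. The lowest difference was -0.70, for Cbs, and the highest 0.30, for Ahcy. In whole liver, fewer cells of a type and less RNA per cell cannot be told apart.

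**Figure D1:**
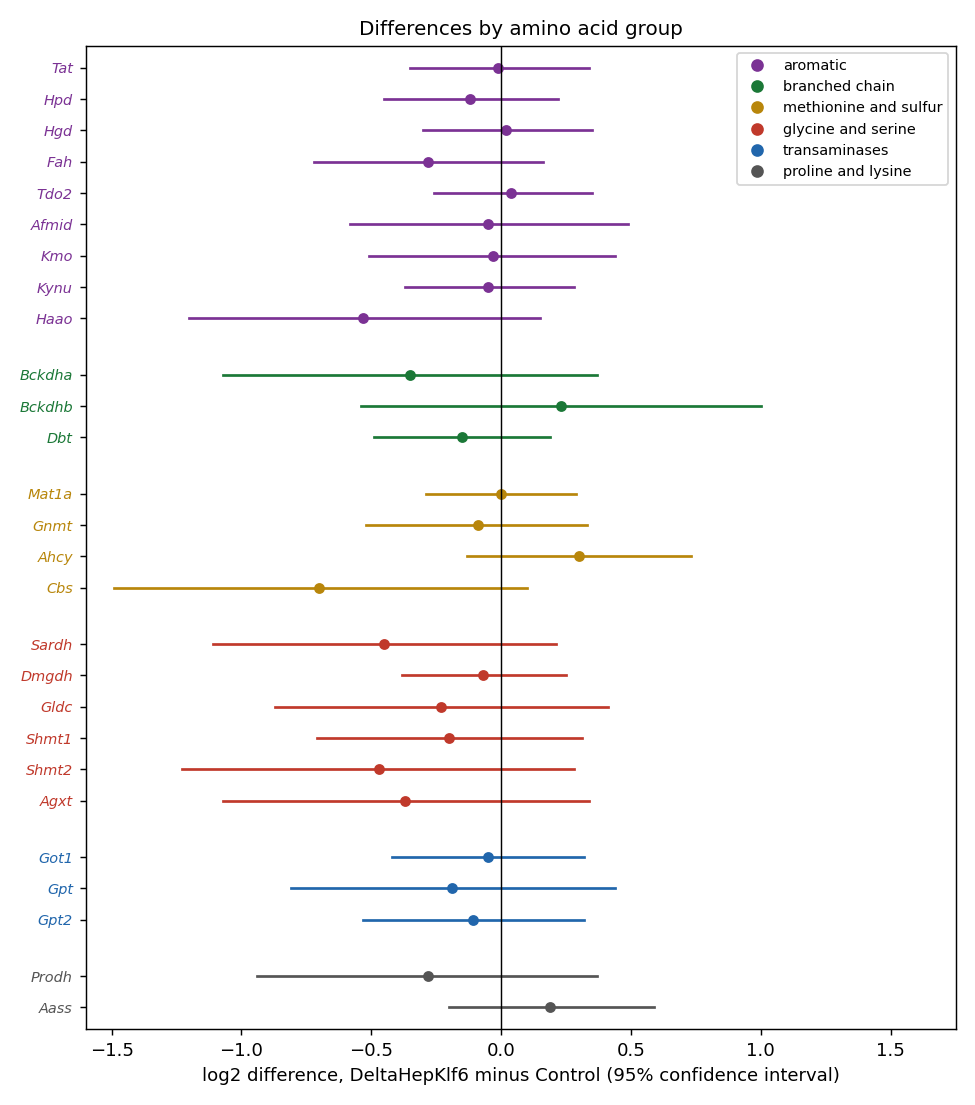
The log2 difference, DeltaHepKlf6 minus Control (x axis), is drawn for each of the 27 measured genes (y axis, coloured by amino acid group) as a point with the 95% confidence interval of the limma fit as a line. All 27 intervals include 0, and Cbs lies farthest from it at -0.70.

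The intervals set how large a difference remains possible. For 21 of the 27 members the 95% confidence interval lay within 2-fold in either direction, and for 13 it lay within 1.5-fold. The widest intervals belonged to Cbs, Bckdhb, Shmt2 and Bckdha. Arrays of the same design were simulated with independent normal noise for each probe set and 100 probe sets changed by each of 2 sizes. In them, 11% of probe sets changed by 1 on the log2 scale were called and 88% of those changed by 2. Shifts shared by many genes of an array were not simulated, so these shares need not hold for the real arrays.

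Klf6 itself was read in every array as a check of the labels. Its log2 signal was 5.93, 5.43 and 5.45 in DeltaHepKlf6 1, 2 and 3, against 6.80, 6.09 and 5.88 in Control 1, 2 and 3. The difference of -0.65 had a standard error of 0.28 and did not pass the test (limma, adjusted p = 0.998), and DeltaHepKlf6 1 lay above Control 3. Hepatocyte markers were bright and level: the mean of the 6 measured of 10 was 12.78 to 12.84 in DeltaHepKlf6 and 12.74 to 12.81 in Control. Genes this bright were shifted little as a set, which does not describe single genes. The 92 genes with a mean signal of 12 or more deviated from their Control means by a median of 0.03, -0.01 and -0.02 in DeltaHepKlf6 1, 2 and 3. Transcripts of the exocrine pancreas, 12 of 16 listed markers measured, averaged at most 5.14 in DeltaHepKlf6 arrays. Control 3 stood apart with a mean of 11.09 for them, where the other Control arrays had 4.99 and 4.85. Without Control 3 the median difference was -0.12 over the members and -0.08 over all genes, and 21 of 27 members lay below 0. Macrophage and Kupffer cell markers averaged 6.83 to 7.59 in DeltaHepKlf6 and 7.49 to 7.97 in Control, with 12 of 12 members of that list below 0. Endothelial markers averaged 7.55 to 7.97 in DeltaHepKlf6 and 7.83 to 8.12 in Control, with 7 of 9 below 0. Over all genes 62.1% lay below 0. The part of these markers in the results was not tested.

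Most members gave bright signals. The mean log2 signal of the 6 arrays ranged from 7.30 for Bckdha to 12.75 for Mat1a, with a median of 11.14, while the median over all genes was 5.83. Of the 27, 23 lay in the brightest 10% of measured genes, and the lowest, Bckdha, was at percentile 74.4. A probe set's signal depends on its probes as well as on its transcript, so these levels place a gene within the range of the array and do not order the genes by abundance. The tyrosine and tryptophan group held both ends of a wide span, with Hpd at 12.74 and Afmid at 9.15. In the glycine and serine group, 5 of the 6 measured genes were below 10 and Dmgdh was at 11.92.

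**Figure D2:**
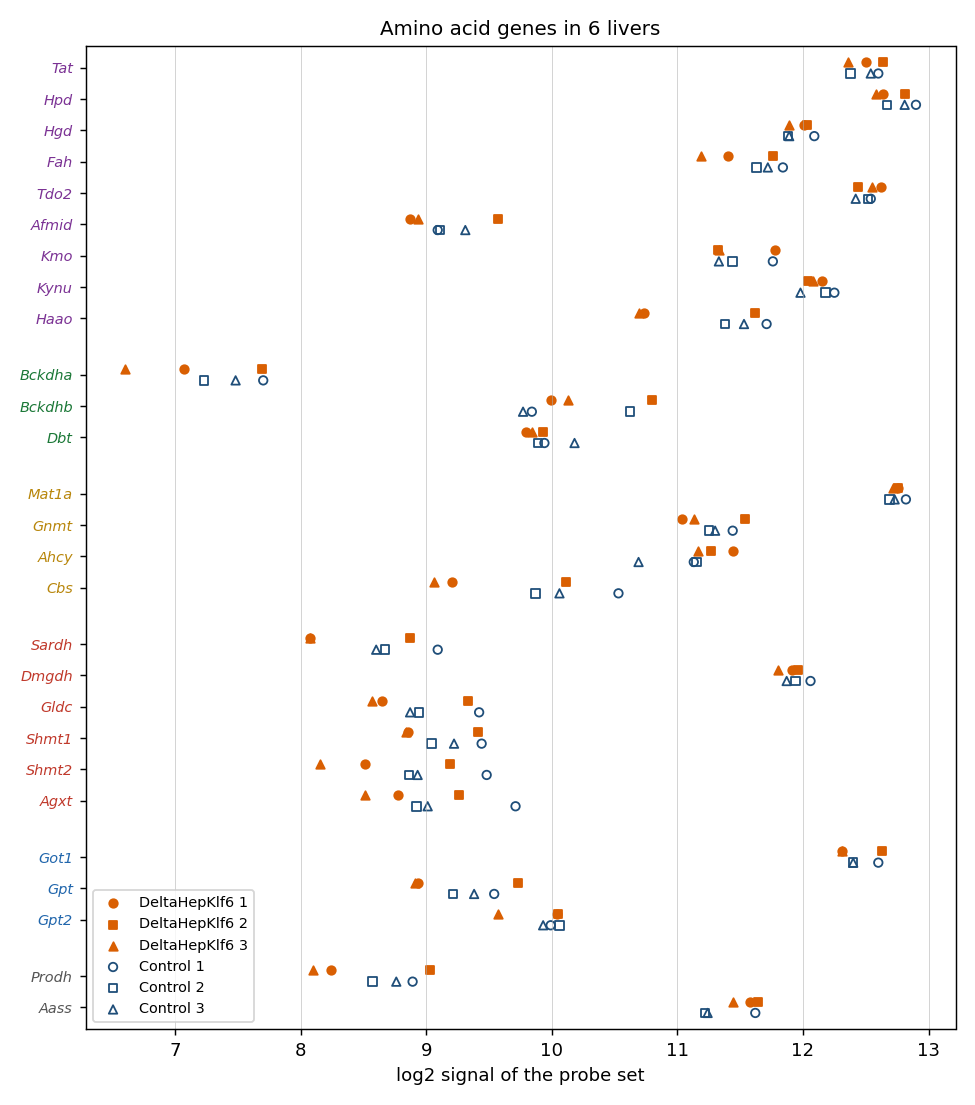
Each row is a gene and each point an array, with the log2 signal of the probe set on the x axis, DeltaHepKlf6 arrays filled and drawn just above the open Control arrays. In rows such as Cbs, Haao and Sardh the square for DeltaHepKlf6 2 lies among the Control arrays while the other DeltaHepKlf6 arrays lie to their left.

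Cbs, Haao, Ahcy and Sardh had the smallest unadjusted p-values among the members, and their promoters are shown because Klf6 and its relatives are known to bind GC boxes and CACCC elements. Each window runs from 250 bases before to 50 bases after the annotated start, taken from RefSeq on build GRCm38.p6 and written 5′ to 3′ on the strand of the gene. Capitals mark GGGCGG and CACCC on either strand. The Cbs window is chr17:31637156-31637455, the Haao window chr17:83846741-83847040, the Ahcy window chr2:155074448-155074747 and the Sardh window chr2:27247254-27247553, all on the minus strand.
Cbs: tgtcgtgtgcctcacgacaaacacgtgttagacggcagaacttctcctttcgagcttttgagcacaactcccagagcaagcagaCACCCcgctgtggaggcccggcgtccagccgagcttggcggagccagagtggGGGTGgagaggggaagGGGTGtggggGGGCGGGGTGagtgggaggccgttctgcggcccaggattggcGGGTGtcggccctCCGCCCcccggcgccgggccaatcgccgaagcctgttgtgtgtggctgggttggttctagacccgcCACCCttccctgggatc
Haao: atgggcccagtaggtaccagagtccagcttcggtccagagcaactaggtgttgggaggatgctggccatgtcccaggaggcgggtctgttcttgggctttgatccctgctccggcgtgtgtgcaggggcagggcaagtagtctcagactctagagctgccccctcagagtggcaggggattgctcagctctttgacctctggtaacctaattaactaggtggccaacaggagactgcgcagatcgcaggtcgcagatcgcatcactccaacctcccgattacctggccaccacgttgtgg
Ahcy: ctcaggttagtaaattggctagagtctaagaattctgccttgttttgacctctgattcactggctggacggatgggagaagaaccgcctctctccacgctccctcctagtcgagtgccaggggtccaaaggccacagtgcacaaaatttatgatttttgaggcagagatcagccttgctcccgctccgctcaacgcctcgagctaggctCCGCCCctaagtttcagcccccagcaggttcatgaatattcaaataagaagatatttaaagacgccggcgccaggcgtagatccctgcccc
Sardh: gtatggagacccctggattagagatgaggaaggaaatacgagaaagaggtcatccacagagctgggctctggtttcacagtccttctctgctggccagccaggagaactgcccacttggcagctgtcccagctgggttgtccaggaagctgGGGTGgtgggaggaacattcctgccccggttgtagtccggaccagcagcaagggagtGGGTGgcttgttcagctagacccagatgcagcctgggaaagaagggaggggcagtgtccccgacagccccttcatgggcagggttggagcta

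The Cbs window held 2 GC boxes and 6 CACCC matches, with 1 base shared by both motifs. The Ahcy window held 1 GC box and no CACCC match, the Sardh window 2 CACCC matches and no GC box, and the Haao window neither motif. RefSeq windows matched 23 of the 27 measured members with 24 windows. Of these windows, 45.8% held GGGCGG and 62.5% held CACCC on either strand, against 35.7% and 57.5% of all 32851 promoter windows of the same length. The median GC content was 58.8% in the members' windows and 52.7% in all windows, and its part in these shares was not tested. Among the other members, Fah had 5 GC boxes and 8 CACCC matches and Shmt1 had 4 GC boxes and 1 CACCC match, while the Shmt2 and Bckdha windows held neither. Among members with a window that held both motifs, differences ran from -0.70 for Cbs to 0.23 for Bckdhb. Among those with a window that held neither, they ran from -0.53 for Haao to 0.23 for Bckdhb, which had a window of each kind. The relation of the motifs to the differences was not tested.

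In tyrosine breakdown the signals of both groups lay close together. Tat, the aminotransferase that starts the pathway and a classic glucocorticoid target, was 12.50, 12.64 and 12.36 in DeltaHepKlf6 1, 2 and 3, against 12.60, 12.38 and 12.54 in Control 1, 2 and 3. Hpd, the dioxygenase that follows, averaged 12.68 ± 0.12 in DeltaHepKlf6 and 12.79 ± 0.12 in Control (SD, n = 3 each). Hgd, homogentisate dioxygenase, averaged 11.98 ± 0.08 in DeltaHepKlf6 and 11.95 ± 0.12 in Control (SD, n = 3 each). The differences of these genes were -0.01, -0.12 and 0.02, each smaller than its standard error of 0.13 to 0.14, and their groups overlapped.

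Fah, fumarylacetoacetase, completes the pathway by releasing fumarate and acetoacetate. It was 11.40, 11.76 and 11.19 in DeltaHepKlf6 1, 2 and 3, against 11.84, 11.63 and 11.72 in Control 1, 2 and 3. DeltaHepKlf6 1 and 3 lay below every Control array and DeltaHepKlf6 2 lay among them. The difference was -0.28 with a standard error of 0.18 (limma, adjusted p = 0.998).

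Tryptophan passes through the kynurenine pathway to the precursors of NAD. Tdo2, the dioxygenase that opens its ring, was 12.62, 12.44 and 12.55 in DeltaHepKlf6 1, 2 and 3, against 12.54, 12.52 and 12.42 in Control 1, 2 and 3, a difference of 0.04 with a standard error of 0.13. Afmid, kynurenine formamidase, differed by -0.05 ± 0.22 (SE), Kmo, the kynurenine hydroxylase, by -0.03 ± 0.20 (SE) and Kynu, kynureninase, by -0.05 ± 0.14 (SE). These steps had overlapping groups. Kmo was one of the few members for which DeltaHepKlf6 2 was lower than the other DeltaHepKlf6 arrays, with 11.78, 11.32 and 11.33 in DeltaHepKlf6 1, 2 and 3, against 11.76, 11.44 and 11.33 in Control 1, 2 and 3.

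Haao, hydroxyanthranilate dioxygenase, makes the direct precursor of quinolinate and was the exception within this pathway by size. It was 10.73, 11.62 and 10.69 in DeltaHepKlf6 1, 2 and 3, against 11.71, 11.38 and 11.53 in Control 1, 2 and 3. DeltaHepKlf6 1 and 3 lay about equally far below all Control arrays, and DeltaHepKlf6 2 lay above Control 2 and 3. The difference was -0.53 ± 0.28 (SE), with 95% confidence limits at -1.20 and 0.15 (limma, adjusted p = 0.998).

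The branched-chain keto acid dehydrogenase complex oxidises the keto acids of leucine, isoleucine and valine. Bckdha, the alpha subunit of its decarboxylase, was 7.07, 7.69 and 6.60 in DeltaHepKlf6 1, 2 and 3, against 7.70, 7.23 and 7.48 in Control 1, 2 and 3, a difference of -0.35 ± 0.30 (SE). Bckdhb, the beta subunit of the same enzyme, was 9.99, 10.80 and 10.13 in DeltaHepKlf6 1, 2 and 3, against 9.84, 10.62 and 9.77 in Control 1, 2 and 3, a difference of 0.23 ± 0.32 (SE). For Bckdhb the highest array of each group was number 2. The signs of the subunits' differences were opposite over all 6 arrays but not without DeltaHepKlf6 2, where Bckdha was at -0.64 and Bckdhb at -0.02, nor with array weights, where they were at -0.31 and -0.06. Without DeltaHepKlf6 3 Bckdha was at -0.09. Dbt, the transacylase core, differed by -0.15 ± 0.14 (SE). The groups overlapped for all 3 genes.

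Methionine enters the cycle through Mat1a, the liver form of methionine adenosyltransferase. Its signal was 12.76, 12.76 and 12.72 in DeltaHepKlf6 1, 2 and 3, against 12.82, 12.69 and 12.73 in Control 1, 2 and 3, with equal group means. Gnmt, which uses S-adenosylmethionine to turn glycine into sarcosine, was 11.04, 11.54 and 11.13 in DeltaHepKlf6 1, 2 and 3, against 11.44, 11.25 and 11.30 in Control 1, 2 and 3, a difference of -0.09 ± 0.18 (SE). Mat1a was among the members with the smallest spread between arrays, and the groups overlapped for both.

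Ahcy, which splits S-adenosylhomocysteine into homocysteine and adenosine, was the only member whose groups did not overlap. It was 11.44, 11.27 and 11.16 in DeltaHepKlf6 1, 2 and 3, against 11.13, 11.15 and 10.69 in Control 1, 2 and 3, so DeltaHepKlf6 3 exceeded Control 2 by 0.01. The difference was 0.30 with a standard error of 0.18 (limma, adjusted p = 0.998), and without Control 3 it was 0.15. Groups were separated with DeltaHepKlf6 higher in 1 of 27 members and 2.42% of all genes, and with DeltaHepKlf6 lower in 0 of 27 members and 3.9% of all genes.

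Cbs, which joins homocysteine and serine to cystathionine and so commits sulfur to cysteine, had the largest difference of the members. It was 9.20, 10.11 and 9.06 in DeltaHepKlf6 1, 2 and 3, against 10.53, 9.87 and 10.06 in Control 1, 2 and 3. Control 1 was the highest array, and DeltaHepKlf6 2 lay above Control 2 and 3. The means were 9.46 ± 0.57 in DeltaHepKlf6 and 10.15 ± 0.34 in Control (SD, n = 3 each). The difference was -0.70 ± 0.33 (SE), with 95% confidence limits at -1.49 and 0.10 (limma, unadjusted p = 0.0758, adjusted p = 0.998).

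The 2 other sulfur genes, Bhmt and Cth, were covered only by probe sets that name a further gene, so their signal cannot be assigned to them. The set shared by Bhmt, which methylates homocysteine from betaine, and its close relative Bhmt2 was 8.83, 9.47 and 8.51 in DeltaHepKlf6 1, 2 and 3, against 9.66, 8.99 and 9.21 in Control 1, 2 and 3. The set naming Cth, which cleaves cystathionine to cysteine, together with a ribosomal protein-like gene differed by -0.08 ± 0.17 (SE). No probe set in the annotation used here named Amt, Agxt2 or Got2, which were not analysed here.

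The genes of glycine, serine, sarcosine and glyoxylate had differences below 0 in 6 of 6 measured members, with a median of -0.30, and none passed the test. The median was -0.52 without DeltaHepKlf6 2, -0.15 without DeltaHepKlf6 3 and -0.11 without Control 1. Over all genes the medians of these fits were -0.1, -0.0 and -0.02. Sardh, the mitochondrial sarcosine dehydrogenase, was 8.07, 8.87 and 8.07 in DeltaHepKlf6 1, 2 and 3, against 9.09, 8.67 and 8.60 in Control 1, 2 and 3, a difference of -0.45 ± 0.27 (SE). Dmgdh, which supplies sarcosine from dimethylglycine, averaged 11.89 ± 0.08 in DeltaHepKlf6 and 11.96 ± 0.10 in Control (SD, n = 3 each). Its groups overlapped, as did those of Sardh.

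Shmt2, the mitochondrial serine hydroxymethyltransferase, was 8.51, 9.19 and 8.15 in DeltaHepKlf6 1, 2 and 3, against 9.48, 8.86 and 8.93 in Control 1, 2 and 3, a difference of -0.47 ± 0.31 (SE). Shmt1, the cytosolic form, was 8.85, 9.41 and 8.84 in DeltaHepKlf6 1, 2 and 3, against 9.44, 9.04 and 9.22 in Control 1, 2 and 3, a difference of -0.20 ± 0.21 (SE). Both had DeltaHepKlf6 1 and 3 below every Control array and Control 1 as the highest of all 6. Gldc, the decarboxylase of the glycine cleavage system, differed by -0.23 ± 0.26 (SE). Agxt, which moves an amino group from alanine to glyoxylate, was 8.77, 9.26 and 8.51 in DeltaHepKlf6 1, 2 and 3, against 9.71, 8.92 and 9.01 in Control 1, 2 and 3, a difference of -0.37 ± 0.29 (SE).

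Among the transaminases, Got1, the cytosolic aspartate aminotransferase, was 12.31, 12.63 and 12.31 in DeltaHepKlf6 1, 2 and 3, against 12.60, 12.40 and 12.40 in Control 1, 2 and 3. Gpt, the cytosolic alanine aminotransferase, was 8.93, 9.73 and 8.91 in DeltaHepKlf6 1, 2 and 3, against 9.54, 9.21 and 9.38 in Control 1, 2 and 3. For both genes DeltaHepKlf6 2 was the highest of the 6 arrays. Their differences were -0.05 ± 0.15 (SE) for Got1 and -0.19 ± 0.26 (SE) for Gpt. Gpt2, the mitochondrial alanine form, differed by -0.11 ± 0.17 (SE).

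Prodh, proline dehydrogenase, was 8.24, 9.03 and 8.10 in DeltaHepKlf6 1, 2 and 3, against 8.89, 8.57 and 8.76 in Control 1, 2 and 3, a difference of -0.28 ± 0.27 (SE). Aass, which carries out the opening steps of lysine breakdown, was 11.58, 11.64 and 11.44 in DeltaHepKlf6 1, 2 and 3, against 11.62, 11.22 and 11.24 in Control 1, 2 and 3. Its difference was 0.19 ± 0.16 (SE), and only Control 1 kept the groups from separating for Aass.

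The arrays differed within the groups in a way that most members shared. DeltaHepKlf6 2 was the highest of the DeltaHepKlf6 arrays, or tied for it, in 23 of 27 members and in 57.6% of all genes. DeltaHepKlf6 3 was the lowest of them, or tied, in 20 of 27 members and in 55.1% of all genes. Control 1 was the highest Control array in 22 of 27 members and in 54.7% of all genes. These counts, and those of the next paragraphs, were chosen after the values were seen and describe the 6 arrays.

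Set against the Control arrays one at a time, DeltaHepKlf6 1 lay below every Control in 16 of 27 members and 34.2% of all genes. DeltaHepKlf6 3 did so in 19 of 27 members and 47.6% of all genes, and DeltaHepKlf6 2 in 1 of 27 members, Kmo, and 15.3% of all genes. Above every Control lay DeltaHepKlf6 2 in 9 of 27 members and 29.4% of all genes. The median deviation of the 27 members from their Control means was -0.21, 0.08 and -0.21 in DeltaHepKlf6 1, 2 and 3, against 0.14, -0.11 and -0.06 in Control 1, 2 and 3. The median SD over members was 0.27 in DeltaHepKlf6 and 0.16 in Control, and over all genes it was 0.21 in DeltaHepKlf6 and 0.17 in Control.

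**Figure D3:**
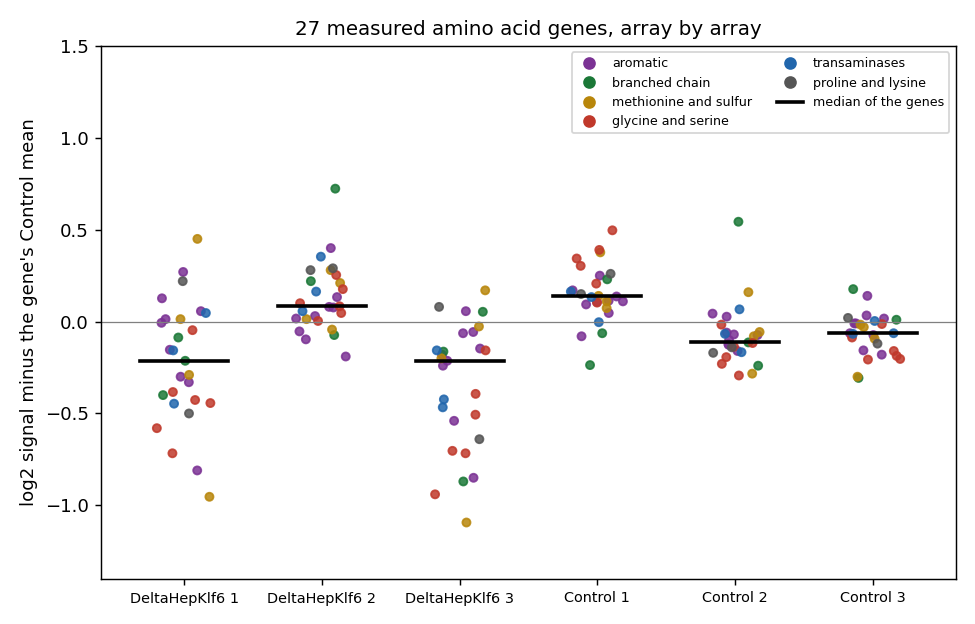
Each point is a gene's log2 signal in 1 array minus its mean over the Control arrays, for the 27 measured members, with a black bar at the median of the genes. The bars lie at -0.21, 0.08 and -0.21 in DeltaHepKlf6 1, 2 and 3 and at 0.14, -0.11 and -0.06 in Control 1, 2 and 3.

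Leaving out single arrays moved the members to different degrees. Without DeltaHepKlf6 2, 8 of 27 members had an unadjusted p under 0.05, against 5.22% of all genes, and with any other array left out 0 of 27 did. The 8 were Haao, Cbs, Sardh, Prodh, Shmt2, Gpt, Fah and Bckdha. Without DeltaHepKlf6 2 the difference was -1.02 ± 0.24 (SE) for Cbs, -0.83 ± 0.16 (SE) for Haao and -0.72 ± 0.20 (SE) for Sardh. None of the 8 passed the test, with a lowest adjusted p = 0.64 in limma. Without DeltaHepKlf6 3 the median difference of the members was -0.04 and 16 of 27 lay below 0, and without Control 1 these were -0.06 and 17. Without DeltaHepKlf6 2 the members' median was -0.19. The median over all genes moved the same way, to -0.0 without DeltaHepKlf6 3, -0.02 without Control 1 and -0.1 without DeltaHepKlf6 2.

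The difference also went with the signal level. All 12 members with a mean signal under 10 had a difference below 0, with a median of -0.26, while of the 15 brighter members 9 were below 0 and 5 above, with a median of -0.03. Over all genes the medians were -0.05 under 10, where 8805 of 14177 lay below 0, and -0.04 at or over it. Of the genes under 10, 7956 had a signal under 6, where no member lay. The median over all genes was -0.10 from 6 to 8 and -0.08 from 8 to 10. The 11 members between 8 and 10 deviated from their Control means by a median of -0.44, 0.10 and -0.51 in DeltaHepKlf6 1, 2 and 3. The 1972 genes of that range deviated by -0.01, 0.06 and -0.30 in the same arrays, so DeltaHepKlf6 3 was low for genes of this level in general and DeltaHepKlf6 1 was not.

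**Figure D4:**
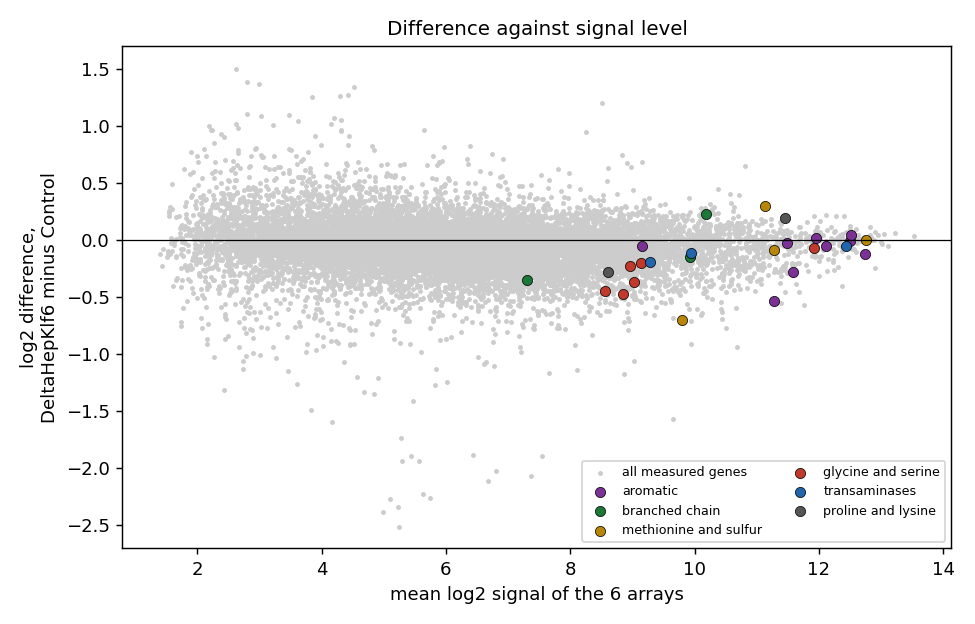
The log2 difference, DeltaHepKlf6 minus Control (y axis), is plotted against the mean log2 signal of the 6 arrays (x axis) for all measured genes in grey and for the 27 members in colour. Members under a signal of 10 all lie below 0, while those above 12 lie near it.

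The arrays' overall distributions differed too. The upper quartile of the signal was 7.19, 7.25 and 6.92 in DeltaHepKlf6 1, 2 and 3, against 7.35, 7.16 and 7.10 in Control 1, 2 and 3. Control 1 and DeltaHepKlf6 2, in which most members were high, had the highest upper quartiles, and DeltaHepKlf6 3 the lowest. DeltaHepKlf6 1 had a higher upper quartile than Control 2 and 3, yet the median deviation of the members was -0.21 in it, as in DeltaHepKlf6 3. With quantile normalization, which makes the distributions equal, the median difference of the members was -0.06 and 20 of 27 lay below 0. The part of this spread in the differences of single members was not tested.

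Neighbouring genes of the same pathways gave no call either. Of 84 further enzymes listed for these and adjoining pathways, 64 were measured. Of the 64, 47 had a difference below 0, 16 above 0 and Arg1 of the urea cycle was at 0.00. Over all genes 62.1% lay below 0 and the median was -0.05, which is also the background for the lists that follow. The median of the 64 was -0.12, and 0 had an unadjusted p under 0.05, against 1.68% of all genes. In the list for histidine, proline, lysine, glutamine and glyoxylate, 11 of 12 measured genes lay below 0 with a median of -0.24. Hoga1, the aldolase that releases glyoxylate in hydroxyproline breakdown, was 8.19, 8.73 and 7.54 in DeltaHepKlf6 1, 2 and 3, against 9.15, 8.46 and 8.82 in Control 1, 2 and 3, a difference of -0.66 ± 0.34 (SE). Grhpr, which reduces glyoxylate, differed by -0.54 ± 0.32 (SE), Aldh7a1 of lysine breakdown by -0.34 ± 0.20 (SE) and Gcdh, glutaryl-CoA dehydrogenase, by -0.29 ± 0.18 (SE).

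In the branched-chain list 15 of 20 measured genes lay below 0, among them Pccb, a subunit of propionyl-CoA carboxylase, at -0.41 ± 0.24 (SE), Aldh6a1 of valine breakdown at -0.20 ± 0.13 (SE), the phosphatase gene Ppm1k, which activates the complex, at -0.27 ± 0.20 (SE) and Ivd of leucine breakdown at -0.26 ± 0.23 (SE). In the folate and serine list 7 of 9 lay below 0. Aldh1l1, the cytosolic formyltetrahydrofolate dehydrogenase, was 10.32, 10.76 and 10.14 in DeltaHepKlf6 1, 2 and 3, against 11.07, 10.63 and 10.63 in Control 1, 2 and 3. Gcsh, the carrier protein of glycine cleavage, had the highest difference of this list at 1.26 ± 0.73 (SE), with a signal of 2.02 in Control 1 against 4.26 to 5.52 in the other arrays. Aldh1l2, the mitochondrial relative of Aldh1l1, differed by -0.16 ± 0.13 (SE) and Ftcd, which passes a carbon of histidine to folate, by -0.23 ± 0.19 (SE).

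The methionine, cysteine and choline list had 6 of 9 measured genes below 0, with Chdh, choline dehydrogenase, at -0.35 ± 0.23 (SE), Pemt, which methylates phosphatidylethanolamine, at -0.24 ± 0.20 (SE), Pipox, a peroxisomal oxidase of sarcosine and pipecolate, at -0.20 ± 0.17 (SE) and Csad, which decarboxylates cysteine sulfinate towards taurine, at -0.34 ± 0.30 (SE). The urea cycle genes lay close to 0, with a median of -0.02 over 6 measured of 8 and the lowest at -0.17 for Nags, which makes the activator of the cycle. Asl, argininosuccinate lyase, differed by -0.10 ± 0.22 (SE), Otc, ornithine transcarbamylase, by 0.02 ± 0.14 (SE) and Slc25a15, the mitochondrial ornithine carrier, by -0.02 ± 0.15 (SE). The phenylalanine and tyrosine list had a median of 0.02 over 3 measured genes and the tryptophan list of -0.04 over 5, where Qprt, which turns quinolinate into an NAD precursor, differed by -0.36 ± 0.34 (SE). Of 8 measured amino acid transporters 4 lay below 0 and 4 above, with a median of -0.05. Slc38a2 differed by -0.26 ± 0.20 (SE), Slc38a3, a glutamine transporter, by -0.22 ± 0.21 (SE) and Slc43a1, a carrier of large neutral amino acids, by 0.22 ± 0.23 (SE). Slc38a4 was the 1 transporter whose groups did not overlap, at 12.51 to 12.56 in DeltaHepKlf6 and 12.46 to 12.50 in Control, a difference of 0.05 ± 0.12 (SE). Such separation with DeltaHepKlf6 higher held for 2.42% of all genes.

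Of 12 transcription factors known to act on such genes, 11 were measured and 1 had an unadjusted p under 0.05, against 1.68% of all genes. This was Ppargc1a, the coactivator PGC-1 alpha, with 9.39, 8.72 and 9.50 in DeltaHepKlf6 1, 2 and 3, against 8.35, 8.64 and 8.39 in Control 1, 2 and 3. All DeltaHepKlf6 arrays lay above all Control arrays, and DeltaHepKlf6 2 was the closest to them. The difference was 0.74 ± 0.24 (SE), and limma's test was not passed (adjusted p = 0.998, unadjusted p = 0.0195). Of the other measured factors, those with the next smallest unadjusted p-values were Cebpa at -0.41 ± 0.20 (SE), Prox1 at -0.27 ± 0.14 (SE) and Cebpb at -0.23 ± 0.13 (SE). Prox1 and Cebpb also had no overlap between the groups, as did Aldh6a1 and Aldh1l2 of the enzyme lists, all with DeltaHepKlf6 lower. Over the 83 measured genes of the further lists, 4 were separated with DeltaHepKlf6 lower and 2 with it higher. The shares over all genes were 3.9% and 2.42%. Cebpb and Aldh1l2 had low mean signals of 5.72 and 4.26.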

How the data were processed

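Total RNA of liver from 6 mice was read on 1 Affymetrix mouse exon array each. The authors deposited log2 values for 23332 probe sets. The tools named are RMA, limma and Affymetrix Expression Console, per the submitters' processing notes, with no version or order. That the scale is log2 was read from the range, 0.65 to 14.35. RMA compresses differences of dim probe sets. Detection calls were not used here, and precision is limited by the number of arrays. Groups and replicate numbers came from the sample titles, and each number within a group was read as a separate mouse. No arrays were identical.

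Gene names came from the platform annotation: 14996 probe sets named 1 gene, 1019 several and 7317 none here. The brightest single-gene set stood for a gene. DeltaHepKlf6 was compared with Control over all probe sets by lmFit and eBayes in limma 3.58.1 (R 4.3.3) with Benjamini-Hochberg adjustment and no filter. The fit was tested on simulated data, in which 10 of the unchanged probe sets were called. All 27 measured members are named, with Klf6, up to 4 genes of each further list by unadjusted p and marker lists by counts. Slc38a4 and Arg1 were named outside this rule, for separated groups and for equal group means. Of the lists of cell markers not described elsewhere, 7 of 9 measured stellate, 6 of 7 neutrophil, 7 of 9 lymphocyte and 2 of 4 cholangiocyte markers had differences below 0. Over all genes the share below 0 was 62.1%. Members and lists were chosen with earlier results of these data known. Alternatives were an intensity trend, filters on dim sets, other scalings, array weights, a replicate block, single arrays left out and other probe set rules.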

Additional observations from a re-analysis of the deposited data

How the results depend on the processing

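The count of called members was 0 in limma under every alternative run, with a lowest adjusted p = 0.64 without DeltaHepKlf6 2 and 0.935 or higher elsewhere. The count of probe sets called was 0 wherever the fit itself was changed (the choice of probe set per gene leaves that count as it is). With single arrays left out, 0 to 8 of 27 members had an unadjusted p under 0.05 in limma, against 1.14% to 5.22% of all genes. The count of members was 1 (Ahcy) with quantile normalization and 2 (Cbs and Haao) with array weights. For those 2 settings the share over all genes was not computed. The median log2 difference of the members ranged from -0.188 to -0.042 with single arrays left out and was -0.058 with quantile normalization. Over all genes the median ranged from -0.1 to -0.0 with single arrays left out. Between 16 and 23 members lay below 0 with single arrays left out. Deviations of arrays with the same replicate number correlated by -0.13, -0.17 and 0.21, and those with different numbers by -0.28 to 0.34. With 3 arrays per group these values cannot show whether the numbers pair the samples. With the number as a replicate block, 0 members and 0 probe sets were called and 21 members lay below 0.

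Of the members that changed sign, Bckdhb was at 0.23 and the others lay between -0.107 (Gpt2) and 0.023 (Hgd). With quantile normalization Kmo was at 0.015 and Afmid at 0.037. With equal array medians Tat was at 0.013. With array weights Kmo was at 0.096, Tat at 0.029 and Bckdhb at -0.063. With single arrays left out Kmo ranged from -0.185 to 0.092, Afmid from -0.27 to 0.08, Hgd from -0.013 to 0.092, Gnmt from -0.245 to 0.005, Got1 from -0.157 to 0.017, Kynu from -0.125 to 0.01, Gpt2 from -0.188 to 0.052, Tat from -0.077 to 0.063 and Bckdhb from -0.017 to 0.502. The causes were not tested.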
